A study of Mus musculus with 38 samples.

Results

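The promoters of 10 genes of the heat shock protein and chaperone machinery, Hspa1a, Hspa1b, Hspa8, Hspa5, Hsph1, Dnajb1, Hsp90aa1, Hsp90ab1, Hspb1 and Cryab, were followed through fasting, torpor and refeeding in the mouse soleus, a postural leg muscle. A promoter here is a cluster of CAGE tags, each tag marking the capped 5′ end of 1 RNA molecule. A cluster belonged to a gene if its most used position lay within 500 bp, on the same strand, of a 5′ end that GENCODE vM21 annotates for that gene. By this rule 13 of the 10819 clusters belonged to the 10 genes and every one of the 10 had at least 1 cluster. Of these genes 8 had a single cluster, Hsp90ab1 had 2 and Cryab had 3.

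Chaperones bind proteins that are unfolded or partly folded and help them reach or regain their shape. Cytosolic HSP70 proteins (Hspa1a, Hspa1b, Hspa8) work in cycles of ATP binding and release that J domain proteins such as Dnajb1 start and exchange factors such as Hsph1 end, HSP90 proteins (Hsp90aa1, Hsp90ab1) finish and hold client proteins such as steroid receptors, and Hspa5, also called BiP, does the work of HSP70 inside the endoplasmic reticulum. Small heat shock proteins such as Hspb1 and Cryab hold unfolding proteins without ATP, and Cryab is abundant in slow, oxidative muscle. Several of the genes are induced by heat shock factors after heat, exercise or other protein damage, while Hspa8 and Hsp90ab1 are known as the steadily transcribed forms.

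The study asked which promoters change in muscle when C57BL/6J mice, all males and young adults, enter the fasting-induced drop in metabolism called daily torpor at low ambient temperature, and which of these changes reverse. In experiment 1, 4 Pre mice were taken on day 1 with food, 8 Mid mice on day 2 after food had been withdrawn, 4 Post mice on day 3 after food had been returned, 4 HiT mice on day 2 at high ambient temperature, 4 Fed mice on day 2 and 4 Dep mice on day 2, fasted but touched gently each time their oxygen consumption began to drop so that torpor was prevented. Experiment 2 repeated Pre, Mid and Post with 2, 5 and 3 other mice. Each library came from the soleus of 1 mouse. The descriptions of HiT and Fed disagree: the condition label of Fed is starvation and the series design gives HiT food, whereas the methods describe HiT as fasted in the warm and Fed as given food at low temperature. In the data the 4 HiT libraries lay with the fasted ones, since Pdk4, a kinase that muscle induces on fasting, averaged 4551 CPM (normalised tags per 1000000 tags) in HiT, 4703 in Mid and 5101 in Dep against 438.4 in Pre, 227.0 in Post and 442.5 in Fed.

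Between 18257657 and 39176649 tags per library fell into clusters in experiment 1 and between 9359994 and 20914855 in experiment 2, so the 10 main promoters were read from at least 43 tags in any library. Markers of slow muscle fibres were present in all libraries, with a summed level of 10146 to 16527 CPM over 8 genes in experiment 1 and of 10146 to 12870 in HiT, the lowest group. The sum of 8 fast fibre genes averaged 17620 CPM in HiT and 20797 to 22135 in the other groups of experiment 1. The higher Myh4 cluster averaged 671.7 CPM in Fed, 316.7 in Mid, 175.4 in Pre, 131.8 in Dep, 75.3 in Post and 4.595 in HiT. Actn3 was also highest in Fed, at 946.5 CPM, with 192.9 in HiT and 178.9 in Post. Whether these fibre markers bear on the results below, those of Cryab included, was not tested. The HiT libraries also differed from the rest in other cells: the summed level of 7 macrophage genes was 170.4 to 384.6 CPM in HiT and 44.5 to 107.0 in the other 34 libraries, and that of 6 immediate early genes was 297.9 to 343.7 CPM against 166.1 to 277.2 in the other 24 libraries of experiment 1. Their part in the HiT results below was not tested, and in whole muscle a change in the number of cells of a type cannot be told apart from a change in the RNA per cell. The library Dep 1 carried 132.6 CPM of neutrophil genes, against at most 1.56 in any other library of experiment 1. In the library Mid 6 the 6 genes used to check feeding summed to 2029 CPM, less than in any other of the 16 Mid, HiT and Dep libraries. This sum averaged 5077 CPM in Mid, of which Pdk4 made up 4703. Pdk4 and Angptl4 averaged higher in Mid than in Pre, whereas Acaca, Fasn, Scd1 and G0s2 averaged lower. The 12 Pre, Post and Fed libraries held 622.8 to 1696 CPM, so a low sum lies towards those groups.

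The sequences just upstream of the start sites are shown for the members whose results differ most or that carry a recognisable element, from the RefSeq promoter table (build GRCm38.p6, the assembly also called mm10), which held windows for 6 of the 10 genes. Hspa1a and Hspa1b are neighbouring copies on chromosome 17, transcribed from the minus strand with starts 12918 bases apart, at chr17:34972157-34972406 and chr17:34959239-34959488 for the 250 bases before each start. The capitals mark the bases in which the 2 windows differ, C44T, T47C and T249G counted from 1 at the 5′ end of the window with the Hspa1a base first.
Hspa1a: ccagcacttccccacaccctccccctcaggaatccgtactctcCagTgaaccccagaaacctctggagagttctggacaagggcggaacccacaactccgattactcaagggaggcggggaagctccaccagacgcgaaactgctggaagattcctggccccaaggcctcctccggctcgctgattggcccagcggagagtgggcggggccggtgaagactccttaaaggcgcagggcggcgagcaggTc
Hspa1b: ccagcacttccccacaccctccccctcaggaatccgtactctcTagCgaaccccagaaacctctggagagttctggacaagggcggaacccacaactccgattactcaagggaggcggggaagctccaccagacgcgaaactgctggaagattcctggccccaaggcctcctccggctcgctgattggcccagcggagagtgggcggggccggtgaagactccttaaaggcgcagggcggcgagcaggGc
The windows are thus 98.8% identical. The first 100 transcribed bases differ at 1 position (C26T, counted from the first base), and the annotated transcripts align over 2214 columns with 98.9% identity and a longest identical run of 638 bases.

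Heat shock factors bind repeats of the unit GAA in alternating orientation, so the windows were searched for GAANNTTC and TTCNNGAA, each of which reads the same on both strands. GAANNTTC occurred in 6.69% and TTCNNGAA in 7.17% of the 32851 promoter windows of 250 bases in the table. The members' matches are printed with the element in capitals: Hspa1a at chr17:34972242-34972271 (minus strand), with the first base of the element 104 bases before the start, as also in Hspa1b; Hspb1 at chr5:135887791-135887840 (plus strand), with elements 117 and 97 bases before the start; and Hsph1 at chr5:149636351-149636380 (minus strand), with its element 33 and 54 bases before 2 RefSeq starts. Counted from the CAGE peak of these libraries, the elements began 105 bases upstream in Hspa1a and Hspa1b, 198 and 178 in Hspb1 and 126 in Hsph1.
Hspa1a element: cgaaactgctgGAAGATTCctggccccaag
Hspb1: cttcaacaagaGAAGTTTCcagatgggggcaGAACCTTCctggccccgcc
Hsph1: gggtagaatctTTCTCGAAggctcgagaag
Hspa5 instead held the endoplasmic reticulum stress response element, CCAAT and CCACG with 9 bases of any kind between them, which occurred in 37 of the 32851 windows (0.113%), 65 bases before the start at chr2:34772019-34772048 on the plus strand. The capitals mark its CCAAT and CCACG ends, and CCAAT alone, on either strand, was found in 33.8% of windows.
Hspa5: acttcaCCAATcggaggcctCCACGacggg
The Dnajb1 windows held neither heat shock motif, and TATAAA, searched on both strands and present in 12.4% of all windows, was in no member window. Such matches describe letters in a window and show no binding. The windows end at the RefSeq start, and the CAGE peak lay 81 bases downstream of it in Hspb1 and 93 and 72 in Hsph1. In Dnajb1 the peak lay 96 bases downstream of the first start, and the second window lay wholly downstream of the peak. The bases between these starts and the peaks were not searched, so absence there is not shown. Windows for Hspa8, Cryab, Hsp90aa1 and Hsp90ab1 are not shown.

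The 10 genes differed widely in level and in how far they moved across the 6 groups of experiment 1. Cryab was the highest, with a mean of 7126 CPM over the 28 libraries, followed by Hsp90ab1 with 1160, Hspa8 with 710 and Hspb1 with 363. Hspa1a averaged 153 CPM, Hspa1b 80.2, Hspa5 76.7 and Hsph1 50.0, whereas Dnajb1 at 12.8 and Hsp90aa1, the inducible HSP90, at 3.79 CPM were low. Because 1 tag stands for 1 transcript, these levels need no correction for gene length. The ratio of the highest to the lowest group mean was 4.69 for Hspb1 (HiT to Fed), 2.48 for Hspa5 (Dep to Post), 2.11 for Hspa1a (Dep to Post) and 1.84 for Cryab (HiT to Fed), and it was between 1.13 for Hspa8 and 1.47 for Hsp90aa1 in the other 6 genes.

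**Figure D1:**
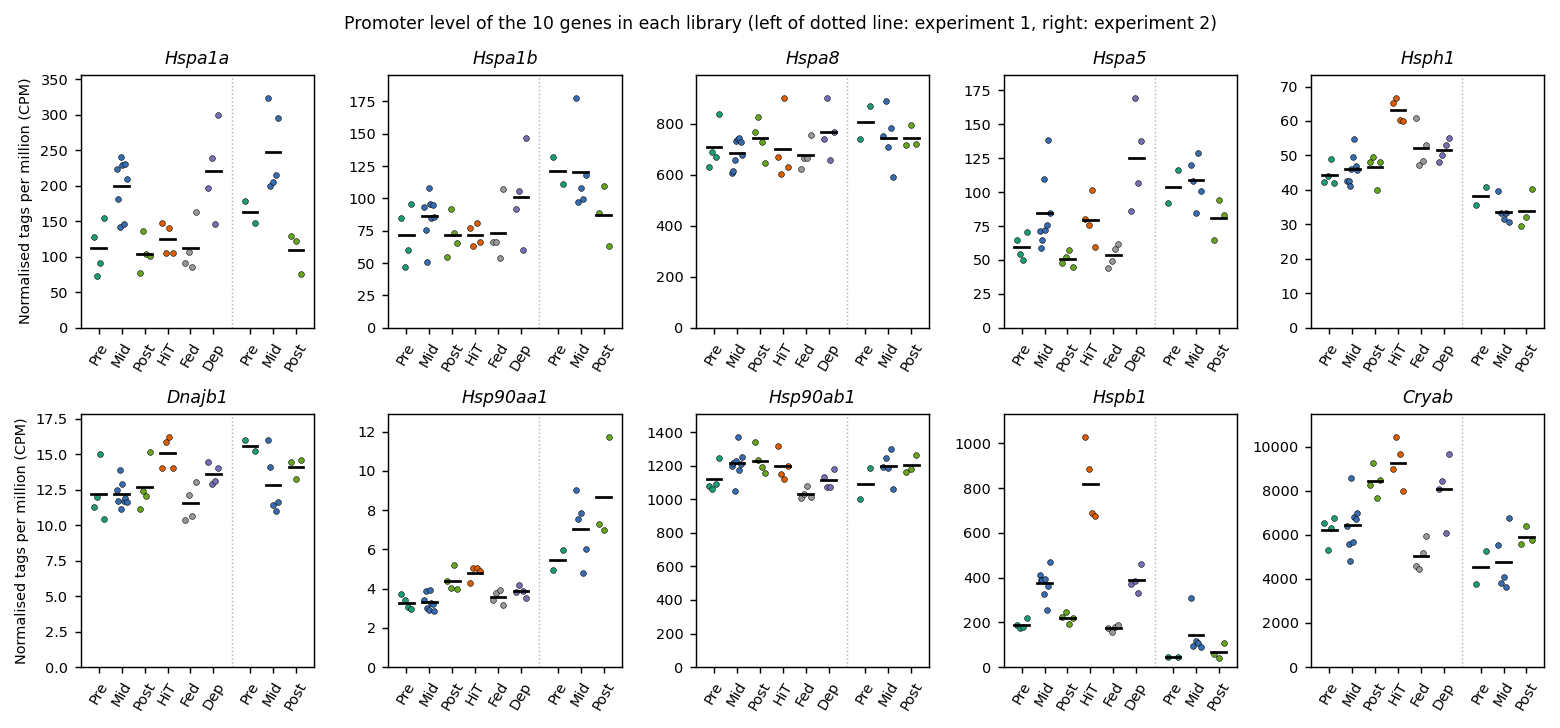
Level of the main promoter of each of the 10 genes, in CPM on a linear axis from 0, in every library by group, with experiment 1 left and experiment 2 right of the dotted line; each point is 1 library and each bar the group mean. Hspb1 in HiT (677 to 1029 CPM) stood above every other library, while Hspa8 stayed between 604 and 903 CPM in experiment 1.

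With the quasi-likelihood test of edgeR and Benjamini-Hochberg adjustment over all clusters tested (called at an adjusted p under 0.05), 9 of the 13 member clusters differed among the 6 groups, against 70.6% of all clusters. Between Pre and Mid 2 members rose, Hspa1a and Hspb1, and 0 fell, where 15.4% of all clusters rose and 14.8% fell (30.2% together). After refeeding, from Mid to Post, 3 rose and 3 fell, where 17.5% of all rose and 17.5% fell (35% together). Mid was higher than HiT in 1 member and lower in 6, where 19.2% of all were higher and 21.8% lower (41% together). Mid was higher than Fed in 6 and lower in 0, where 16.6% of all were higher and 18.6% lower (35.2% together).

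The contrast of HiT with Fed held the most calls, with 9 members higher in HiT and 0 lower, where 23.3% of all clusters were higher and 20% lower (43.2% together). HiT was higher than Pre in 6 and lower in 0, where 18.5% of all were higher and 14.9% lower (33.4% together). Dep was higher than Pre in 3, Hspa1a, Hspa5 and Hspb1, and lower in 0, where 13.7% of all were higher and 12.1% lower (25.8% together). Fed was lower than Pre in 1, the second Cryab cluster, and higher in 0, where 5.32% of all were lower and 5.88% higher (11.2% together). No member was called between Dep and Mid, where 1.16% of all were higher and 0.872% lower (2.03% together): 5 had an unadjusted p under 0.05, and a likelihood ratio test and DESeq2 called 1 each. None was called between Post and Pre either, where 1.05% of all were higher and 0.798% lower (1.85% together): 2 had an unadjusted p under 0.05, and neither other tool called any. These comparisons share libraries, since Mid enters 5 of the 10 and Pre 5, so their values for a gene are not independent.

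In Mid against Pre the likelihood ratio test and DESeq2 each called 3 of the 13 members, and no such count was tested against the share of all clusters. The members' median log2 fold change was 0.12 in that comparison, beside 0.01 over all clusters. In HiT against Pre it was 0.45 beside 0.04, in HiT against Fed 0.43 beside 0.01, in Dep against Pre 0.38 beside 0.00 and in Post against Mid 0.01 beside -0.01. The groups did not overlap at all in 1 member for Mid against Pre (14.8% of all clusters), 4 for Post against Mid (17%), 5 for Mid against HiT (18.8%), 2 for Mid against Fed (13.6%), 6 for HiT against Fed (36.6%), 4 for HiT against Pre (35.1%), 4 for Dep against Pre (30.9%), 2 for Post against Pre (11.5%), 0 for Fed against Pre (17.8%) and 0 for Dep against Mid (2.24%).

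**Figure D2:**
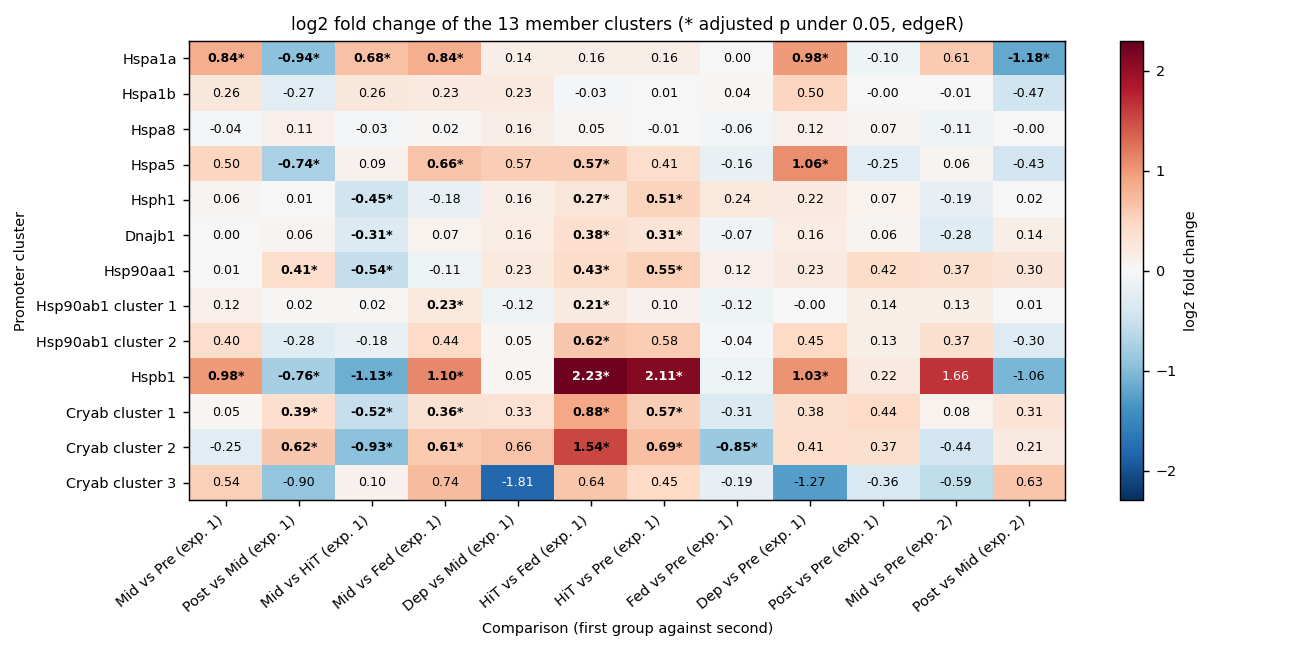
Log2 fold change (colour and printed number) of the 13 member clusters, in rows, in each of the 12 comparisons, in columns; an asterisk and bold type mark an edgeR adjusted p under 0.05. Clusters of 1 gene are numbered by mean level, and the row of Hspb1 holds the largest fold changes, 2.23 for HiT against Fed and 2.11 for HiT against Pre.

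Hspa1a (ENSMUSG00000091971.3) encodes the classical stress-inducible HSP70. Its cluster lay at chr17:34971396-34972217 on the minus strand, with the peak 1 base from the annotated start. It held 128.3, 72.8, 91.4 and 154.5 CPM in the 4 Pre libraries and 141.7 at the lowest, 216.1 at the median and 240.5 at the highest in the 8 Mid libraries. Of the Mid libraries 6 lay above every Pre library. After refeeding the 4 Post libraries held 77.7, 136.1, 103.4 and 100.8 CPM, all below every Mid library. Hspa1a rose from Pre to Mid by 0.84 ± 0.22 (log2 fold change ± SE, here and below; adjusted p = 0.00483) and fell by 0.94 ± 0.22 from Mid to Post (adjusted p = 0.00173).

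In the 3 other day 2 groups, Hspa1a was high in Dep and near the Pre level in HiT and Fed. It was at 148.0, 104.9, 140.0 and 105.8 CPM in the 4 HiT libraries and at 91.0, 106.2, 85.9 and 163.6 in the 4 Fed libraries, and 6 of the 8 Mid libraries were above every library of either group. The Dep libraries held 197.3, 238.8, 146.5 and 299.1 CPM. Mid exceeded HiT by 0.68 ± 0.22 (adjusted p = 0.0139) and Fed by 0.84 ± 0.22 (adjusted p = 0.00413), and Dep exceeded Pre by 0.98 ± 0.25 (adjusted p = 0.00427). Dep and Mid differed by 0.14, with a 95% interval of -0.27 to 0.55. Without the library HiT 2 the adjusted p of Mid against HiT was 0.0550, and with library sizes alone for scaling that of Dep against Pre was 0.0701.

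Hspa1b (ENSMUSG00000090877.3), which encodes a protein nearly identical to that of Hspa1a, peaked at 34959237 in a cluster at chr17:34958136-34959308, minus strand. Its levels were 84.6, 46.6, 59.9 and 95.4 CPM in Pre and 50.8, 89.4 and 108.1 (lowest, median, highest) in Mid, and only 2 of the 8 Mid libraries were above all of Pre. Post held 55.0, 91.7, 73.3 and 65.7 CPM and Dep 92.2, 106.0, 60.2 and 146.4. None of its comparisons was called: Mid against Pre gave 0.26 ± 0.22 (adjusted p = 0.381) and Dep against Pre 0.50 ± 0.25 (adjusted p = 0.147).

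The ratio of Hspa1a to Hspa1b tags within a library, a measure chosen after the levels of both had been seen, separated the groups more sharply than either level. There were 1.56 ± 0.05 Hspa1a tags per Hspa1b tag in Pre (mean ± SD, n = 4), 2.35 ± 0.30 in Mid (n = 8), 1.46 ± 0.06 in Post (n = 4), 1.73 ± 0.14 in HiT (n = 4), 1.52 ± 0.10 in Fed (n = 4) and 2.22 ± 0.17 in Dep (n = 4). All 8 Mid ratios, of which the lowest was 1.72 in Mid 6, lay above all of Pre, Post and Fed. Exact two-sided permutation tests gave p = 0.00202, the smallest possible, for each of Mid against Pre, Post and Fed (0.00808 after Benjamini-Hochberg adjustment over the 12 comparisons) and 0.00606 for Mid against HiT (adjusted 0.0182). For Dep against Pre the exact test could go no lower than the observed 0.0286 (adjusted 0.0571), with all 4 Dep ratios above all 4 Pre ratios. In experiment 2 the ratio was 1.34 ± 0.02 in Pre (n = 2), 2.09 ± 0.26 in Mid (n = 5) and 1.26 ± 0.18 in Post (n = 3), with exact p = 0.0476 for Mid against Pre (adjusted 0.0816) and 0.0179 for Post against Mid (adjusted 0.0429), both the smallest possible.

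**Figure D3:**
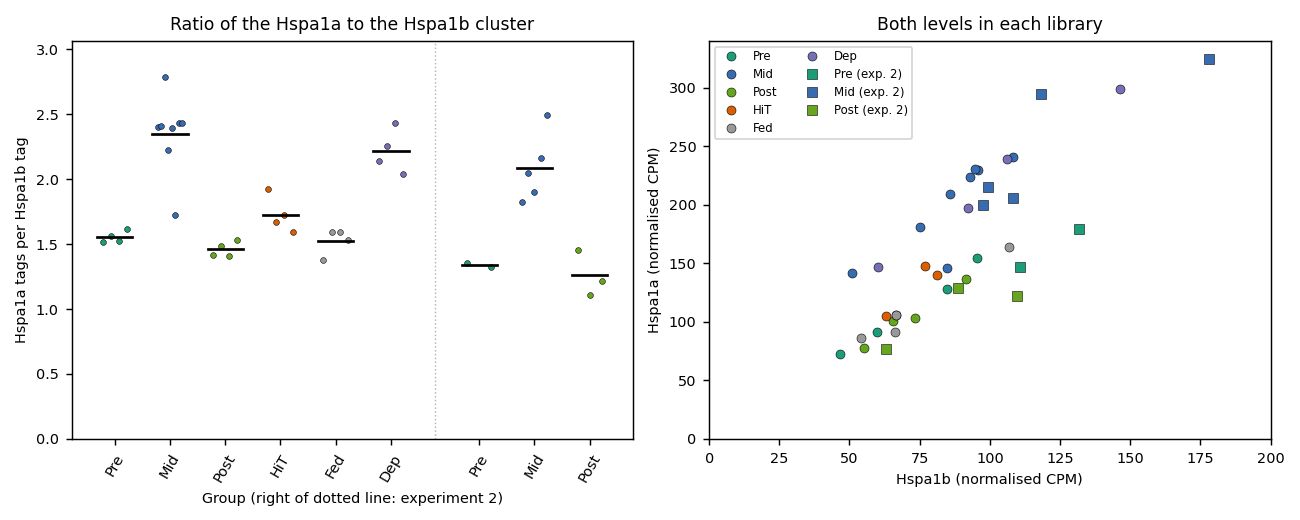
Left, Hspa1a tags per Hspa1b tag in each library by group, with group means as bars; right, the level of Hspa1a against that of Hspa1b, in CPM, with circles for experiment 1 and squares for experiment 2. The Mid ratios (1.72 to 2.79) and Dep ratios (2.04 to 2.43) of experiment 1 sit above those of Pre, Post and Fed.

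Because the copies are so alike, reads within their identical stretches cannot be placed with certainty, and the split between them depends on how the authors shared such tags out. Summed over both copies, an alternative chosen after seeing the data, the level rose from Pre to Mid by 0.64 ± 0.22 (adjusted p = 0.0251), fell by 0.70 ± 0.22 from Mid to Post (adjusted p = 0.0132) and was higher in Dep than in Pre by 0.81 ± 0.24 (adjusted p = 0.0151). Mid exceeded HiT by 0.54 ± 0.21 (adjusted p = 0.0449) and Fed by 0.63 ± 0.21 (adjusted p = 0.0248) in the summed level.

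Hspa8 (ENSMUSG00000015656.17), the constitutive HSP70 also known as HSC70, had the smallest ratio of highest to lowest group mean of the 10 genes. Its cluster at chr9:40801088-40801368, plus strand, peaked 2 bases before the annotated start. It held 707.9 ± 91.4 CPM in Pre (mean ± SD, n = 4), 687.0 ± 56.9 in Mid (n = 8), 742.5 ± 75.9 in Post (n = 4), 701.1 ± 137 in HiT (n = 4), 677.3 ± 54.7 in Fed (n = 4) and 766.7 ± 100 in Dep (n = 4). The lowest and the highest library of experiment 1 were both in HiT, at 604.3 and 902.7 CPM. No difference among the groups was detected (adjusted p = 0.615), and the 95% interval of Mid against Pre, -0.24 to 0.16, leaves room for a change of that size only.

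Hspa5 (ENSMUSG00000026864.13), the HSP70 of the endoplasmic reticulum and a standard target of the unfolded protein response, was highest in the mice kept from torpor by touch. From its cluster at chr2:34772027-34772180, plus strand, came 85.8, 169.8, 106.9 and 138.0 CPM in the 4 Dep libraries against 64.4, 54.2, 49.8 and 70.9 in Pre. All 4 Dep libraries were above all 4 Pre libraries, and Dep exceeded Pre by 1.06 ± 0.23 (adjusted p = 0.000978). The 8 Mid libraries spread from 59.1 through a median of 73.9 to 138.4 CPM, and Post came back to 47.8, 52.3, 57.0 and 44.7 CPM, below all of Mid.

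Hspa5 fell by 0.74 ± 0.20 from Mid to Post (adjusted p = 0.00526), while the step from Pre to Mid, 0.50 ± 0.20, was not called (adjusted p = 0.058). That step lay near the threshold: the likelihood ratio test gave an adjusted p of 0.0449, DESeq2 0.0354 and the fit without Mid 2 0.0299. Dep and Mid differed by 0.57 ± 0.19 (adjusted p = 0.109), and without Mid 7, the highest Mid library, by 0.70 ± 0.17 (adjusted p = 0.0255). In HiT the levels were 80.2, 75.5, 101.6 and 59.4 CPM and in Fed 44.4, 48.9, 58.2 and 61.9, so that 3 HiT libraries were above all Fed libraries. HiT exceeded Fed by 0.57 ± 0.22 (adjusted p = 0.0432) and Mid exceeded Fed by 0.66 ± 0.20 (adjusted p = 0.0117), and both calls were lost with library sizes alone for scaling (adjusted p = 0.331 and 0.110). The HiT against Fed call was also lost with upper-quartile factors (adjusted p = 0.0641) and without any 1 of HiT 1, HiT 2, HiT 3, Fed 1, Fed 2 or Fed 3 (adjusted p = 0.0506 to 0.153), and that of Mid against Fed without Fed 1 (adjusted p = 0.0512).

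Hsph1 (ENSMUSG00000029657.15), the HSP110 that frees nucleotide from HSP70, was set apart by the warm group. Its cluster at chr5:149635970-149636428, minus strand, held 65.1, 66.8, 60.4 and 60.1 CPM in HiT, 42.2, 43.9, 48.9 and 42.1 in Pre and 41.1, 46.0 and 54.8 (lowest, median, highest) in Mid. The 4 HiT libraries were above all Pre, Mid, Post and Dep libraries, and the nearest Fed library was at 60.8 CPM. HiT exceeded Pre by 0.51 ± 0.09 (adjusted p = 7.97e-05) and Mid was below HiT by 0.45 ± 0.08 (adjusted p = 4.09e-05). With library sizes alone for scaling, the adjusted p became 0.143 and 0.0573.

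Dnajb1 (ENSMUSG00000005483.10), the J domain protein HSP40 that hands clients to HSP70, was also highest in HiT, at a lower level. Its cluster at chr8:83608120-83608488, plus strand, held 14.1, 15.9, 16.2 and 14 CPM in HiT, 11.3, 12, 15 and 10.4 in Pre and 11.1, 11.8 and 13.9 (lowest, median, highest) in Mid. Every HiT library was above every Mid library, and 2 of 4 were above every Pre library. Mid was below HiT by 0.31 ± 0.09 (adjusted p = 0.00978) and HiT above Pre by 0.31 ± 0.11 (adjusted p = 0.0296). With library sizes alone for scaling neither was called (adjusted p = 0.343 and 0.656). Without HiT 3 the first of these was not called (adjusted p = 0.0588), and without any 1 of the 4 Pre libraries except Pre 3, or without HiT 2 or HiT 3, the second was not (adjusted p = 0.0616 to 0.118).

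Hsp90aa1 (ENSMUSG00000021270.13), the inducible cytosolic HSP90, gave few tags, 43 to 156 per library, from its cluster at chr12:110696233-110696553, minus strand. The levels were 3.70, 3.40, 3.04 and 2.99 CPM in Pre, 2.85, 3.24 and 3.94 (lowest, median, highest) in Mid, 4.40, 4.01, 5.19 and 3.98 in Post and 4.28, 5.07, 5.04 and 4.88 in HiT. Post and HiT both lay wholly above Mid. Hsp90aa1 rose by 0.41 ± 0.12 from Mid to Post (adjusted p = 0.00931), Mid was below HiT by 0.54 ± 0.12 (adjusted p = 0.000717) and HiT above Pre by 0.55 ± 0.14 (adjusted p = 0.00338). With library sizes alone for scaling these 3 calls were lost (adjusted p = 0.139, 0.0965 and 0.273), and the rise to Post was also not called without Post 3, the highest Post library (0.32 ± 0.13, adjusted p = 0.0692).

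Hsp90ab1 (ENSMUSG00000023944.14), the constitutive HSP90, had its main cluster at chr17:45573166-45573408, minus strand, where the peak lies 3 bases from the annotated start. It held 1119 ± 85.1 CPM in Pre (n = 4), 1214 ± 88.7 in Mid (n = 8), 1231 ± 81.4 in Post (n = 4), 1197 ± 84.9 in HiT (n = 4), 1032 ± 33.5 in Fed (n = 4) and 1116 ± 53.7 in Dep (n = 4). Fed was the lowest group, and 7 of the 8 Mid libraries were above every Fed library. Mid exceeded Fed by 0.23 ± 0.07 (adjusted p = 0.00774) and HiT exceeded Fed by 0.21 ± 0.08 (adjusted p = 0.0251), but HiT against Fed became -0.02 when the deposited TPM values were tested with limma, and both calls were lost with library sizes alone for scaling. A second cluster inside the gene, at chr17:45571413-45571624, which overlaps the third exon of the main transcript near the start of a retained-intron transcript, held 1.46 to 3.57 CPM in experiment 1 and 5.35 to 12.8 in experiment 2, and was called only between HiT and Fed (0.62 ± 0.25, adjusted p = 0.0444). That call was lost with library sizes alone, upper-quartile factors or TPM (adjusted p = 0.313, 0.0665 and 0.190) and without HiT 3, HiT 4 or any 1 Fed library (adjusted p = 0.0554 to 0.166), and the HiT against Fed call of the main cluster without HiT 1, HiT 4, Fed 1 or Fed 4 (adjusted p = 0.0545 to 0.139).

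Hspb1 (ENSMUSG00000004951.10), which encodes the small heat shock protein HSP27 (HSP25 in the mouse), changed more than any other member. Its cluster lay at chr5:135887744-135888574, plus strand. The 4 Pre libraries held 186.1, 175.9, 177.6 and 219.3 CPM, the 8 Mid libraries 256.4 at the lowest, 388.3 at the median and 471.1 at the highest, and the 4 Post libraries 225.7, 245.0, 192.4 and 220.5. Mid did not overlap Pre or Post, and the lowest Mid library was Mid 6, the one with the lowest sum of food check genes. In the group mean of Mid that sum is mostly Pdk4. Hspb1 rose from Pre to Mid by 0.98 ± 0.13 (adjusted p = 4.24e-06) and fell by 0.76 ± 0.13 from Mid to Post (adjusted p = 5.82e-05).

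The 4 Dep libraries, at 372.3, 386.6, 331.0 and 461.1 CPM, lay within the Mid range, and Dep against Mid gave 0.05 with a 95% interval of -0.20 to 0.29. Fed stayed at 173.1, 158.4, 179.0 and 188.5 CPM, and Fed against Pre gave -0.12 with an interval of -0.40 to 0.17. In the HiT mice, in the warm, Hspb1 was higher still, at 1029, 884.9, 690.1 and 677.1 CPM, above every library of any other group. HiT exceeded Pre by 2.11 ± 0.15 (adjusted p = 2.39e-10), a 4.32-fold difference, Fed by 2.23 ± 0.15 (adjusted p = 8.88e-11), and Mid was below HiT by 1.13 ± 0.12 (adjusted p = 5.28e-08). All 7 Hspb1 calls of experiment 1 held under every other setting tried.

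A second site shares the Hspb1 sequence. Hsp25-ps1, a processed pseudogene on chromosome 13, aligns with the transcript Hspb1-201 over 630 columns with 99.4% identity and a longest identical run of 552 bases, and the table has a cluster at it, at chr13:45078618-45079215 on the minus strand. In experiment 1 the Hspb1 cluster took 64.0% ± 0.65 (SD, n = 28) of the summed tags of both, between 62.6% and 65.5% in every library. In experiment 2 that share was 21.2% ± 5.5 (SD, n = 10), from 13.1% to 30.6%. The levels of Hspb1 alone are therefore not compared between the experiments, and what set the share apart was not tested. In the sum of both, chosen after seeing the data, experiment 1 changed as before, by 0.99 ± 0.13 from Pre to Mid and 2.12 ± 0.15 from Pre to HiT.

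**Figure D4:**
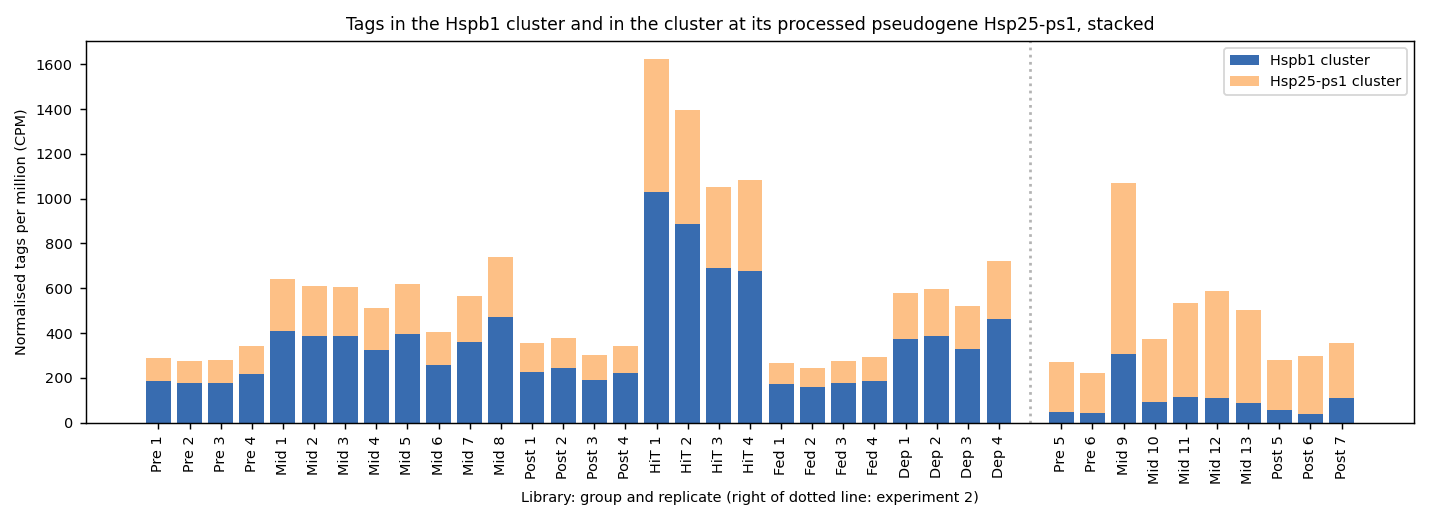
Level, in CPM on a linear axis from 0, of the Hspb1 cluster (blue) with that of the Hsp25-ps1 cluster stacked on it (orange), 1 bar per library, with experiment 2 right of the dotted line. In experiment 1 the blue part is 62.6% to 65.5% of each bar and in experiment 2 it is 13.1% to 30.6%; HiT bars are the tallest of experiment 1 (1054 to 1623 CPM).

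Cryab (ENSMUSG00000032060.10) encodes αB-crystallin, which guards desmin and sarcomere proteins. Its main cluster, at chr9:50752813-50753810 on the plus strand the highest of its 3, held 6519, 5309, 6330 and 6739 CPM in Pre, 4795, 6550 and 8577 (lowest, median, highest) in Mid, and 8278, 9252, 7647 and 8502 in Post. This cluster is 998 bases wide, and its peak lay 212 bases downstream of the nearest annotated start. Mid against Pre was not called, at 0.05 (95% interval -0.21 to 0.31), whereas Post exceeded Mid by 0.39 ± 0.13 (adjusted p = 0.0218), with 1 Post library above all Mid libraries. That call was lost without Post 1 or without Post 2 (adjusted p = 0.0502 and 0.0788). It was also lost with library sizes alone for scaling (adjusted p = 0.124) and when the deposited TPM values were tested with limma (adjusted p = 0.140). The HiT libraries held 8985, 10441, 9641 and 7969 CPM and the Fed libraries 4563, 4427, 5164 and 5934, without overlap.

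HiT exceeded Fed by 0.88 ± 0.15 (adjusted p = 5.86e-05) and Pre by 0.57 ± 0.15 (adjusted p = 0.00461) in the main Cryab cluster, and Mid was below HiT by 0.52 ± 0.13 (adjusted p = 0.002). The call against Fed held under every setting, whereas those against Pre and Mid were lost with library sizes alone for scaling (adjusted p = 0.165 and 0.0697). A second cluster, at chr9:50754163-50754645 by the start of a retained-intron transcript and over exon 2 of Cryab-201, was at 2.82 to 11.6 CPM in experiment 1 and moved alike: it rose by 0.62 ± 0.20 from Mid to Post (adjusted p = 0.0158), was higher in HiT than in Fed by 1.54 ± 0.24 (adjusted p = 1.45e-05) and was the only member called between Fed and Pre, where Fed was lower by 0.85 ± 0.24 (adjusted p = 0.0248). The call between Fed and Pre was lost without Pre 1, Pre 3, Fed 1 or Fed 2 (adjusted p = 0.0644 to 0.0849) and with library sizes alone (adjusted p = 0.0977), and the rise from Mid to Post without Post 1 (adjusted p = 0.0891).

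The third Cryab cluster, at chr9:50751738-50751947, which peaks on the last base of exon 1 of Cryab-202, varied most between single libraries. It held 14.9 CPM in Mid 1, 11.6 in Mid 4 and 10.5 in HiT 1, and 0.695 to 4.07 CPM in the other 25 libraries of experiment 1. No comparison of it was called; Dep against Mid gave -1.81 ± 0.77 (adjusted p = 0.196).

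In experiment 2, which had 2 Pre, 5 Mid and 3 Post libraries, 0 of the 13 clusters were called between Mid and Pre, where 5.3% of all clusters rose and 4.44% fell (9.74% together). Of the 13, 2 had an unadjusted p under 0.05, and the likelihood ratio test and DESeq2 called 1 each. From Mid to Post 1 fell, Hspa1a, and 0 rose, where 8.65% of all fell and 7.73% rose (16.4% together). The groups did not overlap in 3 members for Mid against Pre (31.2% of all) and in 2 for Post against Mid (23.3%). The Hspa1a levels were 178.8 and 146.9 CPM in Pre, 324.0, 199.9, 205.7, 215.4 and 294.9 in Mid and 129.0, 122.1 and 76.4 in Post, and Mid overlapped neither other group. Hspa1a fell by 1.18 ± 0.22 from Mid to Post (adjusted p = 0.00445), and Mid against Pre gave 0.61 ± 0.25 (adjusted p = 0.162). All Pre libraries and 4 of the Mid libraries were in sequencing lane 3 and all Post libraries and 1 Mid library in lane 4. Within lane 3 Hspa1a was at 199.9 to 324.0 CPM in Mid and at 146.9 and 178.8 in Pre, and within lane 4 the single Mid library held 294.9 CPM and the Post libraries 76.4 to 129.0.

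Hspb1 itself was at 46.9 and 43.1 CPM in the 2 Pre libraries, 308.3, 93.6, 115.0, 109.2 and 88.6 in Mid and 56.9, 39.3 and 108.7 in Post. Mid lay above Pre, and Mid 9 stood far above the other 4 Mid libraries. Mid against Pre gave 1.66 ± 0.56 (adjusted p = 0.0888) and, without Mid 9, 1.17 ± 0.34 (adjusted p = 0.0672), while Post against Mid gave -1.06 ± 0.45 (adjusted p = 0.144) and -0.57 ± 0.28 without Mid 9 (adjusted p = 0.226). Summed with the pseudogene the level rose by 1.30 ± 0.34 from Pre to Mid (adjusted p = 0.0381) and fell by 0.98 ± 0.29 from Mid to Post (adjusted p = 0.0426), with 273.1 and 223.6 CPM in Pre, 1068, 374.4, 532.5, 586.6 and 503.2 in Mid and 278.9, 300.1 and 355.3 in Post. Within lane 3 the sum was 374.4 to 1068 CPM in Mid and at most 273.1 in Pre.

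Hspa5, at 91.8 and 116.5 CPM in Pre, 84.9, 108.6 and 129.1 (lowest, median, highest) in Mid and 64.8, 94.1 and 83.0 in Post, gave 0.06 ± 0.18 for Mid against Pre and -0.43 ± 0.16 for Post against Mid (adjusted p = 0.0932). A direct test of whether the fold change of a member differed between the experiments called 0 of the 26 member tests, and 0 over all 10819 clusters in either comparison. The unadjusted p of the member tests was 0.120 or more. The SE of these member differences ran from 0.12 to 1.12, so the absence of calls does not show that the changes were alike. For Mid against Pre the difference, experiment 2 minus experiment 1, was -0.39 ± 0.30 for Hspa5 and 0.73 ± 0.45 for Hspb1. The Hspb1 cluster took an unlike share of the tags in each experiment, and for the sum with Hsp25-ps1 the difference was 0.37 ± 0.31.

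The other genes of the folding machinery were taken from lists of 113 genes, of which 101 had a cluster, 105 clusters in all. From Pre to Mid 25 rose and 12 fell, 35.2% beside 30.2% of all clusters, and from Mid to Post 25 rose and 23 fell, 45.7% beside 35%. In the other groups 33 were higher and 8 lower in HiT than in Pre (39.0% beside 33.4%), 26 were higher and 10 lower in Dep than in Pre (34.3% beside 25.8%), and 3 were higher and 0 lower in Dep than in Mid (2.86% beside 2.03%). With library sizes alone for scaling, 13 of the 105 were called between Mid and Pre, where 1458 of all 10776 clusters were, and 13 between HiT and Pre, where 1974 of all were, so the share in the lists was then not above that of all clusters. Of the 22 clusters of J domain co-chaperones 8 rose and 3 fell from Pre to Mid, among them Dnajb5, which is abundant in muscle (1.11 ± 0.22 at its cluster with the peak at 42949916), Dnaja2 (0.44 ± 0.07) and Dnaja1 (-0.69 ± 0.13). Of 18 HSP90 co-chaperones 5 rose and 4 fell, led by Fnip1 (1.26 ± 0.10), a folliculin partner, and Fkbp5 (1.20 ± 0.21), an immunophilin and a known target of glucocorticoids. Fkbp5 fell by 1.91 ± 0.22 from Mid to Post.

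The relatives closest to the members moved in both directions. Of 5 cytosolic HSP70 relatives 1 rose from Pre to Mid, Hspa4 (0.28 ± 0.06), and 0 fell (20% called, beside 30.2% of all clusters). Of 4 small heat shock proteins Hspb8, the partner of Bag3, rose by 0.43 ± 0.09, while Hspb3 fell by 0.99 ± 0.14 and Hspb2, which lies head to head with Cryab, by 0.32 ± 0.09. Hspb3 and Hspb2 rose from Mid to Post by 1.35 ± 0.14 and 0.49 ± 0.09, and Hspb8 was higher in HiT than in Pre by 0.72 ± 0.10. Of the 3 heat shock factors and binding partners with a cluster, Hsf1, the main activator of heat shock genes, is given here although it was not called, at 23.2 CPM in Pre, 22.8 in Mid and 22 in HiT, and 0 were called between Mid and Pre or between HiT and Pre. From Mid to Post 1 of the 3 rose in experiment 1 and 2 in experiment 2, where 35% and 16.4% of all clusters were called. In Mid against Fed and in HiT against Fed 1 was higher and 1 lower, where 35.2% and 43.2% of all were called. Fed was lower than Pre in 1 (11.2% of all called).

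In the endoplasmic reticulum list, 5 of 19 rose and 1 fell from Pre to Mid, 31.6% called beside 30.2% of all clusters. Dnajb9, a partner of Hspa5, rose by 1.07 ± 0.13, Ern1, which encodes the stress sensor IRE1, by 0.63 ± 0.13 and Herpud1, which serves degradation, by 0.61 ± 0.11, while Ddit3, the stress factor CHOP, fell by 0.67 ± 0.12. Dnajb9, Ern1 and Herpud1 fell again by 1.03 ± 0.13, 0.93 ± 0.13 and 0.67 ± 0.11 from Mid to Post. In HiT against Pre 12 of 19 were higher and 1 lower (18.5% and 14.9% of all clusters), among them Manf (1.27 ± 0.28), Sdf2l1 (1.19 ± 0.27), Pdia4 (0.90 ± 0.17) and Pdia6 (0.88 ± 0.11), and in Mid against HiT 10 of 19 were lower and 4 higher (21.8% and 19.2% of all). In HiT against Pre, 6 of 13 subunits of the chaperonin TRiC and prefoldin, which fold actin and tubulin, were higher in HiT than in Pre, with Cct6a the first (0.55 ± 0.08), and 0 were lower. Between Pre and Mid 1 of 11 mitochondrial chaperones rose, Hspa9 (0.19 ± 0.06), and 1 fell, Grpel2 (18.2% called, beside 30.2% of all clusters). The gene lists were drawn up with results on these libraries known, so their counts are a description.

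**Figure D5:**
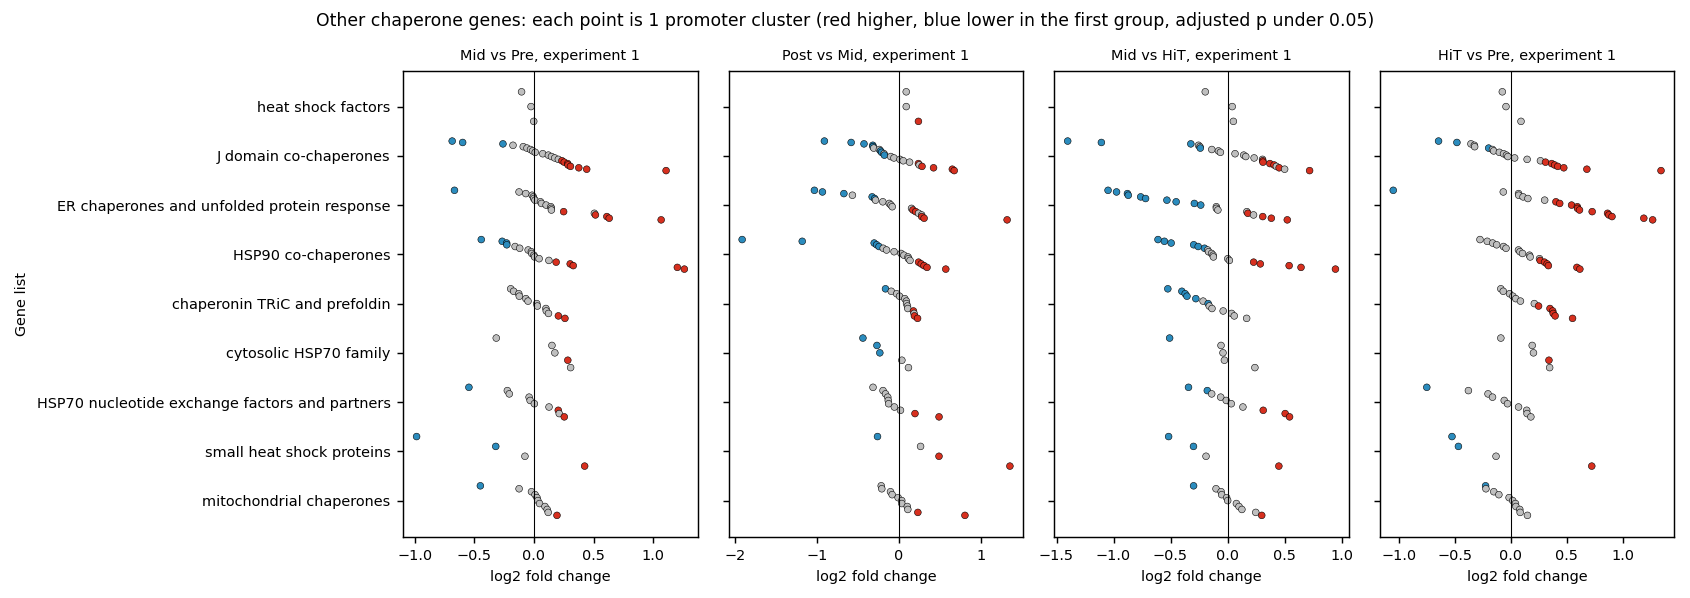
Log2 fold change of each promoter cluster of the other chaperone genes (1 point each), by gene list, in 4 comparisons of experiment 1; red and blue points are higher and lower in the first group at an edgeR adjusted p under 0.05 and grey points were not called. In HiT against Pre 12 of 19 endoplasmic reticulum clusters are red and 1 blue, and in Mid against HiT 10 of 19 are blue and 4 red.

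The promoters most like each member were sought among 9578 other clusters by Pearson's r of log2 levels over the 28 libraries of experiment 1, given with r over the 10 libraries of experiment 2. Points share libraries, groups and scaling, so r describes likeness only. Hspa1a was most like Abra, a muscle regulator of actin signalling (0.89, and 0.86 in experiment 2), Dnaja2 (0.88 and 0.89) and Slc35f5 (0.88 and 0.84). Hspb1 was followed by its pseudogene (1.00 and 0.86) and the transcription factor Junb (0.95 and 0.66). Hspa5 was nearest to Rheb (0.90 and 0.41), AC117239.2 (0.89 and 0.21) and Txndc9 (0.89 and 0.80), and the main Cryab cluster to the chaperonin subunit Cct3 (0.88 and 0.61), Eny2 (0.88 and 0.76) and Klhl41 (0.85 and 0.35). The 3 highest r of Hspa8 were 0.77 to 0.79 in experiment 1 and -0.19 to 0.24 in experiment 2, and those of Hspa1b were 0.70 to 0.75 and -0.20 to 0.64.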

How the data were processed

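Soleus RNA was read by nAnT-iCAGE in 38 libraries. Per the labels and methods, the authors mapped the tags with BWA and HISAT2 to mm10 (versions not given in the sources used here), clustered them and deposited, for each cluster and library, tag counts, in which multiply mapping tags were shared out, and TPM values. Counts were analysed as deposited; TPM entered 1 alternative only.

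Experiments were fitted apart with edgeR 4.0.16 (TMM factors, quasi-likelihood test, R 4.3.3): 10776 clusters with any tag in experiment 1 and 10816 in experiment 2, 1 fit for all groups of each, adjusted p under 0.05. Levels are TMM-normalised counts per 1000000 tags (CPM). The alternatives used limma 3.58.1 (pseudocount 0.1) and DESeq2 1.42.0. The fits were tested on simulated data. Libraries of a group were not duplicates (lowest chi-square per cluster 12.4 over 72 pairs). Same replicate numbers did not pair the libraries.

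The members, gene lists and tests were chosen with earlier results of these data known. All 10 members were described; of the other lists the up to 4 called genes with the largest change in each direction in a comparison could be named, and, for likeness, the 3 highest r, of which 1 is not reported here.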

Additional observations from a re-analysis of the deposited data

Results flagged for a closer look

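Among 91 combinations of a member cluster and a group of 4, 5 or 8 libraries, 6 had 1 library whose gap to its nearest neighbour, as a share of the range of the group, passed Dixon's 95% critical value. Chance flags about 1 in 20 groups, and 6 of 91 is near that share. In experiment 2 the library Mid 9 was the highest of 5 for both Hspb1 (308.3 CPM, next 115.0) and Hspa1b (177.9 CPM, next 118.3), and it also held the most immediate early gene tags of any library, 397.5 CPM; the part of this in its chaperone levels was not tested. In experiment 1 the Hsph1 level of Post 3 was low (40.1 CPM, next 48.1), the main Hsp90ab1 cluster was high in Pre 4 (1246 CPM, next 1090), the second Hsp90ab1 cluster was high in Dep 1 (2.90 CPM, next 2.34), the library with neutrophil tags, and the third Cryab cluster was high in HiT 1 (10.5 CPM, next 2.26).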

How the results depend on the processing

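Of the 41 called member changes 16 kept their call under every alternative tried: the changes of Hspa1a in Mid against Pre, Post against Mid (both experiments) and Mid against Fed, of Hspa5 in Post against Mid and Dep against Pre, all 7 of Hspb1 in experiment 1, HiT against Fed of the main Cryab cluster, and Mid against HiT and HiT against Fed of the second. Over 788 refits of these 41, 674 kept the call, 113 lost it and 1 reversed, Hsp90ab1 in HiT against Fed, at -0.0177 with the deposited TPM and limma; the cause was not tested. Scaling mattered most: library sizes alone shifted the median over all clusters by up to -0.216 (HiT against Fed, where the share of higher calls went from 53.8% to 23.7%) and called 3 members in Mid against HiT, 2 in Mid against Fed, 3 in HiT against Fed, 1 in HiT against Pre, 0 in Fed against Pre and 5 across the 6 groups; the deposited TPM with limma called 3, 2, 3, 1, 0 and 4. Of all calls, library sizes alone moved the higher share from 51.0% to 36.6% in Mid against Pre, 47.1% to 23.3% in Mid against Fed, 55.4% to 29.6% in HiT against Pre, 52.5% to 33.3% in Fed against Pre, 53.1% to 25.3% in Dep against Pre, 57.1% to 77.8% in Dep against Mid and 47.2% to 62.2% in Post against Mid of experiment 2; upper-quartile factors gave 35.7% in Mid against Pre, 63.3% (from 49.9%) in Post against Mid, 36.7% in Mid against Fed, 41.3% in HiT against Pre, 38.9% in Dep against Pre and 58.3% in Post against Mid of experiment 2. Upper-quartile factors called 5 in HiT against Fed. Fitting only the groups compared called 5 in HiT against Fed, 0 in Fed against Pre, 5 in Dep against Pre and 1 in Post against Pre. The likelihood ratio test and DESeq2 each called 1 in Dep against Mid and 1 in Mid against Pre of experiment 2. Summing near-identical copies, added after seeing the data, called 1 and 2 in Mid against Pre and Post against Mid of experiment 2.

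The replicate block called 3 in Mid against Fed and moved no other count by over 1.5 times; replicate numbers were not a pairing (18 of 60 same-number correlations were over 0.1, and in 9 of 60 tests a library was most like the one with its own number), and in experiment 2 Mid shares no number with Pre or Post. Leaving out 1 library at a time gave 2 to 3 calls in Mid against Pre, 4 to 6 in Post against Mid, 6 to 7 in Mid against HiT, 3 to 6 in Mid against Fed, 0 to 1 in Dep against Mid, 6 to 8 in HiT against Fed, 4 to 7 in HiT against Pre, 0 to 2 in Fed against Pre, 3 to 5 in Dep against Pre, 0 in Post against Pre, 8 to 10 across the 6 groups, and 0 and 1 in the 2 comparisons of experiment 2. In the chaperone lists, library sizes alone called 13 in Mid against Pre, 15 in Post against Mid, 25 in Mid against HiT, 11 in Mid against Fed, 0 in Dep against Mid, 18 in HiT against Fed, 13 in HiT against Pre, 0 in Fed against Pre, 11 in Dep against Pre and 0 in Post against Pre; the likelihood ratio test called 6 and DESeq2 8 in Dep against Mid, and DESeq2 5 in Post against Pre. Depth limits Hsp90aa1 and the minor clusters, read from 17 to 385 tags.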

Other observations

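Dnajb5, a J domain gene expressed in muscle, had 3 promoter clusters that took different courses. The cluster with the peak at 42949916 averaged 18.4 CPM in Pre and 39.7 in Mid, a rise of 1.11 ± 0.22 (edgeR, adjusted p = 0.000446), and fell by 0.91 ± 0.22 in Post. The cluster with the peak at 42950401 averaged 5.06 CPM in Pre, 4.86 in Mid and 12.8 in HiT, so that HiT exceeded Pre by 1.34 ± 0.21 (adjusted p = 2.55e-05). The cluster with the peak at 42952815 averaged 77.1 CPM in Pre, 72.4 in Mid and 104 in Dep, and was higher in Dep than in Mid by 0.53 ± 0.11 (adjusted p = 0.0196). Whether the 3 clusters differ from each other in their changes was not tested.

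Of the 105 chaperone clusters outside the 10 genes 3 were called between Dep and Mid (2.03% of all clusters): this Dnajb5 cluster, Dnaja1, a co-chaperone of HSP70, with 25.3 CPM in Dep and 17.5 in Mid (0.53 ± 0.13, adjusted p = 0.0385), and the small heat shock protein Hspb8, with 723.7 and 574.7 CPM (0.33 ± 0.09, adjusted p = 0.0438). With library sizes alone for scaling no cluster of these lists was called in this comparison, whereas the likelihood ratio test and DESeq2 called more.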
